A study of Mus musculus with 24 samples.

Results

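Sites of the zinc finger transcription factor MYT1L were examined at 9 genes of voltage-gated sodium channel alpha subunits, out of 21938 annotated protein-coding genes of the mouse. The genes were chosen by family, as Scn1a, Scn2a, Scn3a, Scn8a, Scn4a, Scn9a, Scn10a, Scn11a and Scn7a, and a site was counted when its midpoint lay in the gene or within 20 kb of it. By this rule 76 of 144257 listed sites belonged to the 9 genes, of which 54 lay at the 4 channels of the brain and 22 at the other 5. No site fell into the windows of 2 of these genes.

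Sodium channel alpha subunits form the pore through which sodium enters an excitable cell and starts the action potential. Scn1a, Scn2a, Scn3a and Scn8a are the channels of central neurons, and they concentrate at the axon initial segment and the nodes of Ranvier. Scn4a is the channel of skeletal muscle, Scn9a, Scn10a and Scn11a serve peripheral sensory neurons, and Scn7a encodes an atypical relative that senses extracellular sodium. MYT1L is found in nearly all neurons and is best known as a repressor of genes of other cell lineages.

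The method was CUT&RUN, which releases DNA at bound protein with a nuclease tethered to an antibody, in mice of unknown sex that the labels give as C57BL/6J, while the methods of the study name C57BL/6N for the mutant line. The groups were the cortex of WT mice at E18.5, the prefrontal cortex of WT mice at P0 and of WT adults aged 3 months, and prefrontal cortex of adult Myt1l heterozygotes (HET) of the same age, with 3 MYT1L and 3 control IgG libraries each. The HET mice carried a germline frameshift in the first protein coding exon on 1 allele, according to the methods of the study, so 1 intact allele remained. Those methods name prefrontal cortex for all stages, E18.5 included, where the labels give cortex. Each group is represented by 1 merged list of sites, namely 14477 at E18.5, 40698 at P0, 32145 in WT adults and 56937 in HET adults, with no height per site, so no value below has a replicate error and every comparison is a description without a test. Sequencing depth was unknown, all intervals cover counting error only, and both adult groups were from sequencing run 2 while both younger groups were from run 1, so age and run cannot be told apart. Dissociated tissue holds several cell types, and a site in fewer cells cannot be told apart from weaker binding per cell.

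Sequences are shown here for 6 stretches at the brain channels that were listed in more than 1 group. Each is the part common to the named lists, written 5′ to 3′ on the strand of the gene in build mm10 and trimmed to bases outside exons. Capitals mark AAGTT on either strand, the 5 letters at the heart of the MYT1L motif AAAGTT. 
Scn2a outer start (E18.5, P0), chr2:65620552-65620770, plus strand: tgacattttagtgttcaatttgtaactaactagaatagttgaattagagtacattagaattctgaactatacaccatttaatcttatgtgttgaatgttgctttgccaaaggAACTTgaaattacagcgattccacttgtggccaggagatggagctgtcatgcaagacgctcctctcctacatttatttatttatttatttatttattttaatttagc
Scn2a inner start (E18.5, P0, adult WT), chr2:65668484-65668764, plus strand: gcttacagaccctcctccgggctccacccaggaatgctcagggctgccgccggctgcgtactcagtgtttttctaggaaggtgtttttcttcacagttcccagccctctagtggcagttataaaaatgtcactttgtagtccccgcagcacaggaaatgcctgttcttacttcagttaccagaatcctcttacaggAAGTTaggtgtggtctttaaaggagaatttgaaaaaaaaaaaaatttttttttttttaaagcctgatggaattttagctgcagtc
Scn3a start (E18.5, P0), chr2:65567628-65567693, minus strand: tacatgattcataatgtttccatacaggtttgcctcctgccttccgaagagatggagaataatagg
Scn8a intron (E18.5, P0), chr15:100987158-100987438, plus strand: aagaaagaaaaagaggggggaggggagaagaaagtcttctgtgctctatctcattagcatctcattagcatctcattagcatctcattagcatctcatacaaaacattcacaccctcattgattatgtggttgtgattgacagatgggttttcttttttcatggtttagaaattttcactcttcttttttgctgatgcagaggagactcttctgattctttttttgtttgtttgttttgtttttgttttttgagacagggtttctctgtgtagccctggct
Scn1a intron (adult WT, adult HET), chr2:66346347-66346458, minus strand: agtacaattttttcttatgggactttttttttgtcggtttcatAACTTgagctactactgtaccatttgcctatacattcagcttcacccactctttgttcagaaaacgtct
Scn2a intron (adult WT, adult HET), chr2:65722328-65722466, plus strand: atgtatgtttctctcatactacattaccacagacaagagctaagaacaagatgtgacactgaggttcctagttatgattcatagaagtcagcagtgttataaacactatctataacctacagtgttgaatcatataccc
The upstream stretches of Scn2a and Scn3a end at the base before an annotated transcription start. AAAGTT was absent from all 6 stretches on both strands, and the shorter AAGTT occurred in both Scn2a starts and in the Scn1a intron. The GC content of the 6 stretches ranged from 32.0% at the outer Scn2a start to 44.1% at the inner Scn2a start.

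Scn2a, a channel of excitatory neurons that is a leading autism and epilepsy gene, had 2 sites at E18.5, 3 at P0, 5 in WT adults and 5 in HET adults. The gene runs over 147 kb on the plus strand of chromosome 2 (chr2:65620771-65767447, Ensembl ENSMUSG00000075318) and has 3 annotated starts. Its outer start was covered at E18.5 by a site of 439 bp and at P0 by a site of 354 bp. The start 48.0 kb further inside was covered at E18.5 by 430 bp and at P0 by 568 bp, and a second P0 site of 228 bp lay just upstream. In adult WT the inner start was still listed, by a site of 282 bp that ended on the start itself. In adult HET no site lay within 1 kb of any Scn2a start, and the nearest to the outer start was a site of 87 bp in the intron 9.05 kb downstream. Thus the inner start was listed in 3 WT lists and the outer start in the 2 younger lists. A site deep in the gene, 102 kb from its start, was shared by adult WT (295 bp) and adult HET (139 bp).

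Scn1a, the main channel of fast-spiking inhibitory neurons and the gene of Dravet syndrome, had 2 sites at E18.5, 3 at P0, 6 in WT adults and 9 in HET adults. It runs over 170 kb on the minus strand (chr2:66270778-66440840, ENSMUSG00000064329). Its outermost start had no site within 1 kb in any list, and the nearest upstream sites lay 17.4 kb away at P0 and 7.23 kb away in adult HET. Both of these lay in Gm13629 (chr2:66440880-66546026), a gene on the opposite strand, so they cannot be given to Scn1a alone. The start 30.8 kb inside the gene was covered at E18.5 by 506 bp and at P0 by 441 bp. A noncoding RNA gene on the opposite strand, Gm13630 (chr2:66409494-66421588), overlaps this stretch, so the sites cannot be given to either gene alone. In the adult lists the sites of this gene lay elsewhere. There 4 sites of adult WT and 2 of adult HET lay within 6 kb downstream of the start 89.6 kb inside the gene, over a span of 4635 bp. A site of adult WT of 295 bp overlapped a pair of adult HET sites of 108 and 112 bp. None of the younger sites lay in that span.

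The Scn1a window also held the only place listed in all 4 groups, between 66256365 and 66257226. It lay 13.8 to 14.2 kb beyond the end of Scn1a and at the start of the neighbouring gene Ttc21b (chr2:66184327-66256617, minus strand), which encodes a protein of transport within cilia. The sites there were 660 bp wide at E18.5, 840 bp at P0, 146 bp in WT adults and 215 bp in HET adults, and those of the 2 adult lists did not overlap each other. Because this start belongs to Ttc21b, the counts of the channels without it are given beside the densities below.

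Scn3a, the channel of the fetal and neonatal brain, had 1 site at E18.5 and 3 in each later list. It spans 111 kb (chr2:65457118-65567627, minus strand, ENSMUSG00000057182) and starts beside Scn2a in the opposite direction. The site at its start was 549 bp wide at E18.5 and 409 bp at P0. In adult WT 2 sites of 145 and 113 bp lay 0.812 and 1.23 kb downstream in the adjoining intron, and neither overlapped the younger sites. In adult HET the nearest site lay 27.4 kb into the gene. The start of Scn3a itself was therefore listed in the younger groups only, among these 4 lists.

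Scn8a, the channel that dominates mature nodes and initial segments, had 1, 3, 4 and 1 sites. It spans 176 kb on chromosome 15 (chr15:100869858-101045938, plus strand, ENSMUSG00000023033). Unlike the other brain channels it had no site near a start at E18.5, when its site of 576 bp lay in an intron 117 kb from the gene start and was listed again at P0 with 281 bp. At P0 a site of 186 bp lay 1.88 kb from the gene start, in an intron and 790 bp from the nearest annotated transcription start. A site 18.0 kb into the gene was shared by P0 (232 bp) and adult WT (243 bp). The single site of adult HET, of 192 bp, lay 3.3 kb downstream of an inner start.

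**Figure D1:**
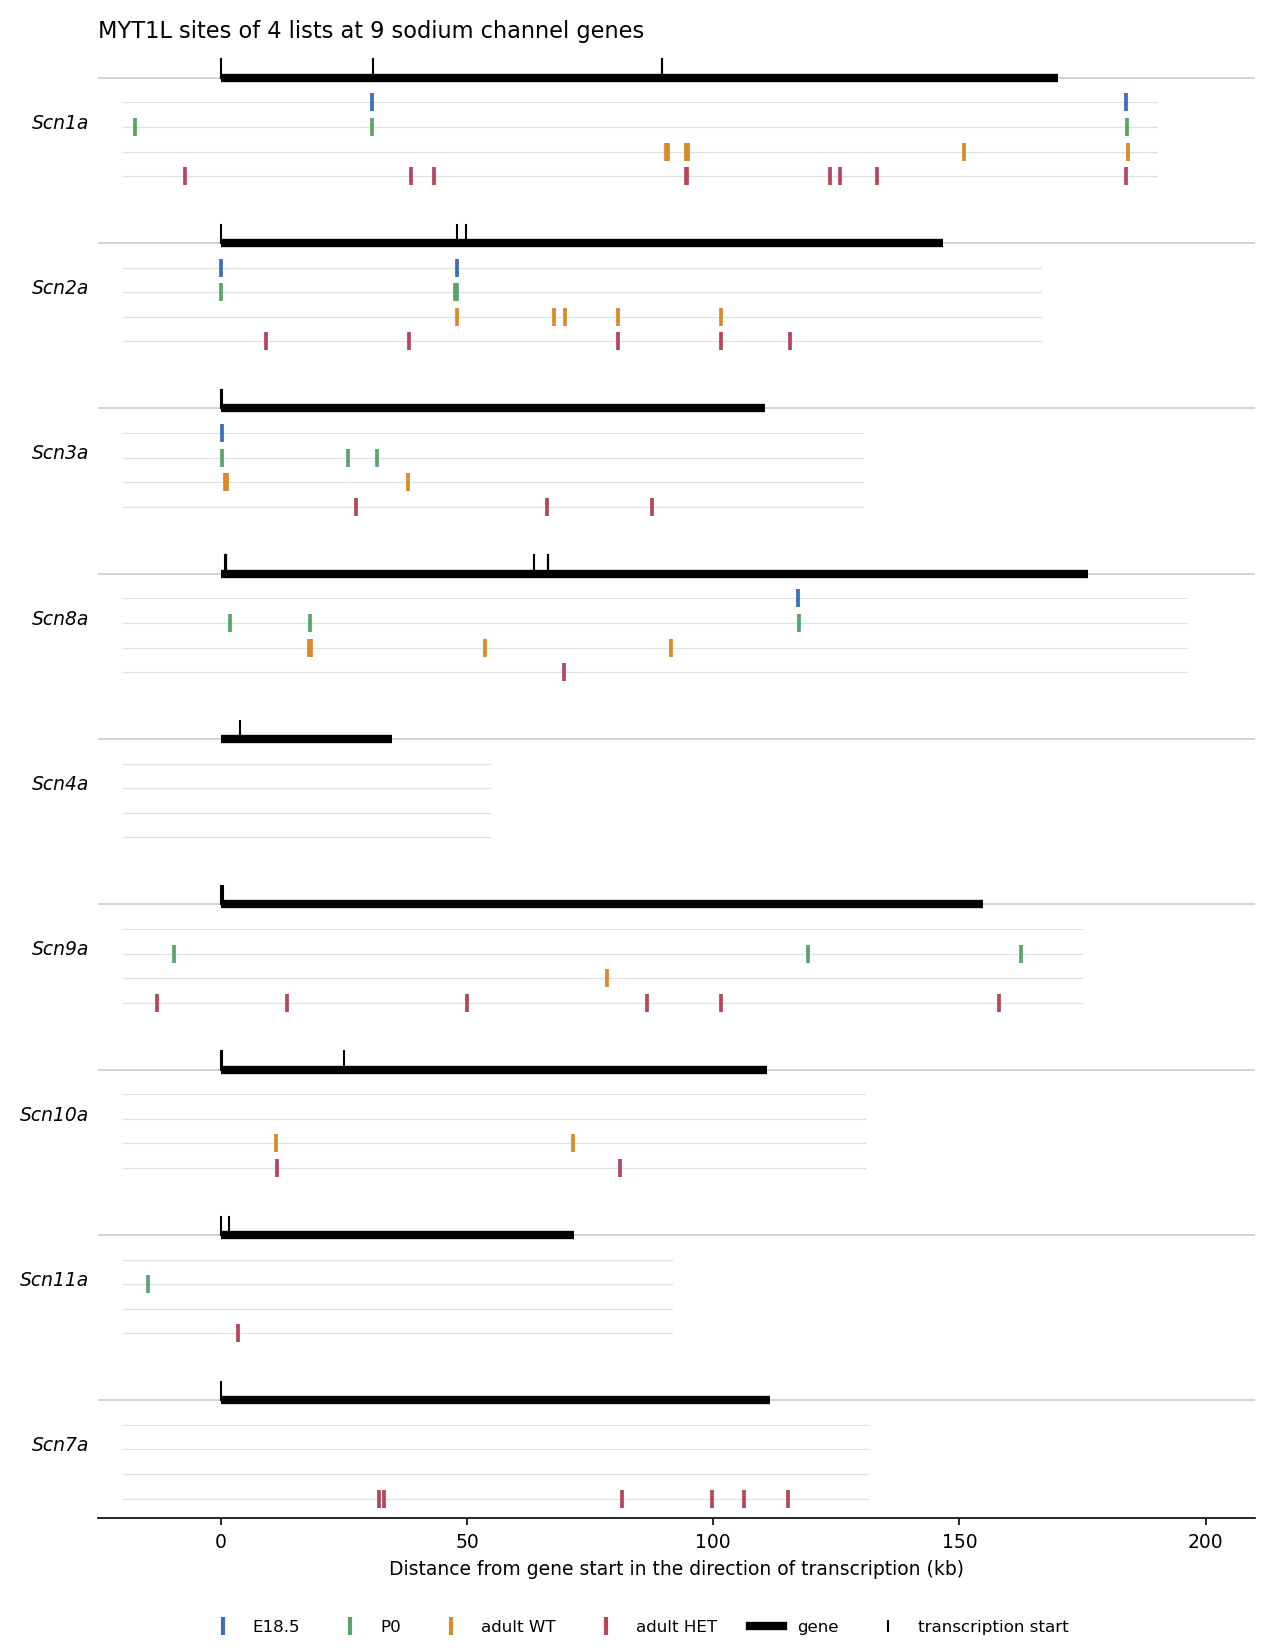
The 9 genes drawn in the direction of transcription, with distance from the gene start in kb on the x axis, a black bar for the gene, short black lines for transcription starts, and 1 coloured track per list with a tick at each site midpoint (E18.5, P0, adult WT, adult HET from top to bottom). At Scn2a the E18.5 and P0 ticks stand at both starts, Scn4a has no tick in any track, and the 6 ticks of Scn7a are all on the adult HET track.

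The close-up of the starts gives the same sites at base resolution. At the 4 covered starts the E18.5 and P0 sites both reached over the start position. The only adult site that touched an annotated start of these 9 genes was that of adult WT at the inner Scn2a start.

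**Figure D2:**
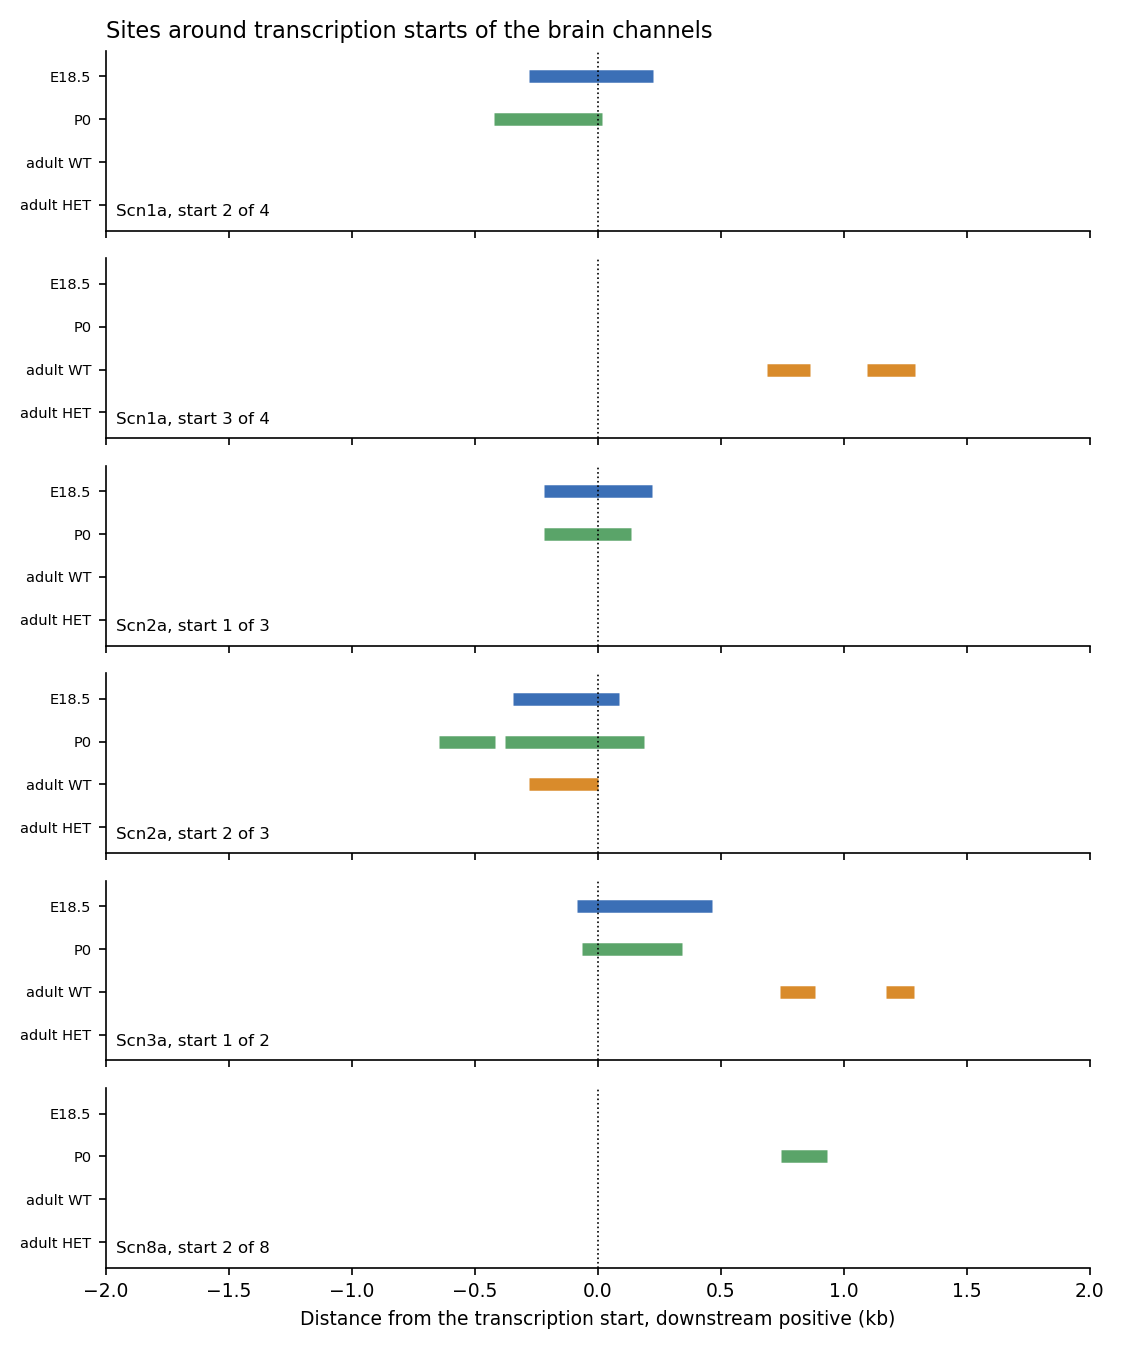
Sites within 2 kb of 6 transcription starts of Scn1a, Scn2a, Scn3a and Scn8a, numbered from the outermost start of each gene, with distance from the start in kb on the x axis (downstream positive, dotted line at the start) and each site drawn at its full width on the track of its list. E18.5 and P0 bars overlap at 4 starts, adult WT bars lie near 3 starts, and no adult HET bar appears.

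Scn4a had no site within 20 kb in any list. It is the shortest of the 9 genes, with 34.7 kb (chr11:106318592-106353288, minus strand, ENSMUSG00000001027). The nearest site lay 45.5 kb from the gene at E18.5, 41.9 kb at P0, 102 kb in WT adults and 45.5 kb in HET adults. The window of 74.7 kb is small, and a count of 0 there allows up to 4.94 sites per 100 kb (exact Poisson interval), above the average of the genome in every list.

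Scn9a, a channel of nociceptors and sympathetic neurons, had no site at E18.5, 3 at P0, 1 in WT adults and 6 in HET adults. It spans 155 kb (chr2:66480080-66634962, minus strand, ENSMUSG00000075316), next to Scn1a. The P0 sites were 145, 145 and 232 bp wide, that of adult WT 294 bp, and those of adult HET 85 to 152 bp. None lay within 5 kb of a Scn9a start, where the closest was the P0 site 9.59 kb upstream. A single adult HET site of 152 bp lay in a coding exon, the only such site among the 76. Gm13629, on the opposite strand, overlaps the end of Scn9a and the stretch beyond it. The P0 sites that start at 66472362 and 66515595 and the adult HET sites that start at 66476842 and 66533332 lay in Gm13629. These sites cannot be given to Scn9a alone.

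Scn10a and Scn11a, which carry the sodium currents of nociceptors that resist tetrodotoxin, had few sites. Scn10a (chr9:119608456-119719322, minus strand, ENSMUSG00000034533) had none at E18.5 and at P0, 2 in adult WT of 138 and 160 bp, and 2 in adult HET of 108 bp each. A site of each adult list lay about 11 kb into Scn10a, at 119708098 to 119708257 in WT and 119707866 to 119707973 in HET, without overlap. Scn11a (chr9:119753759-119825456, minus strand, ENSMUSG00000034115) had 1 site at P0, of 139 bp and 14.8 kb upstream, and 1 in adult HET, of 75 bp and 1.78 kb from its inner start. The latter was the only site within 5 kb of a start among the 22 at these 5 genes.

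Scn7a (chr2:66673425-66784914, minus strand, ENSMUSG00000034810) had 6 sites in adult HET and none in the other 3 lists. They were 57 to 158 bp wide, 5 in introns and 1 within 3.61 kb beyond the end of the gene, and the nearest to the start lay 32.1 kb away. The narrowest, of 57 bp, consisted wholly of annotated repeat. With none of the 6 overlapping another list, Scn7a had no place that was listed in more than 1 group.

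**Figure D3:**
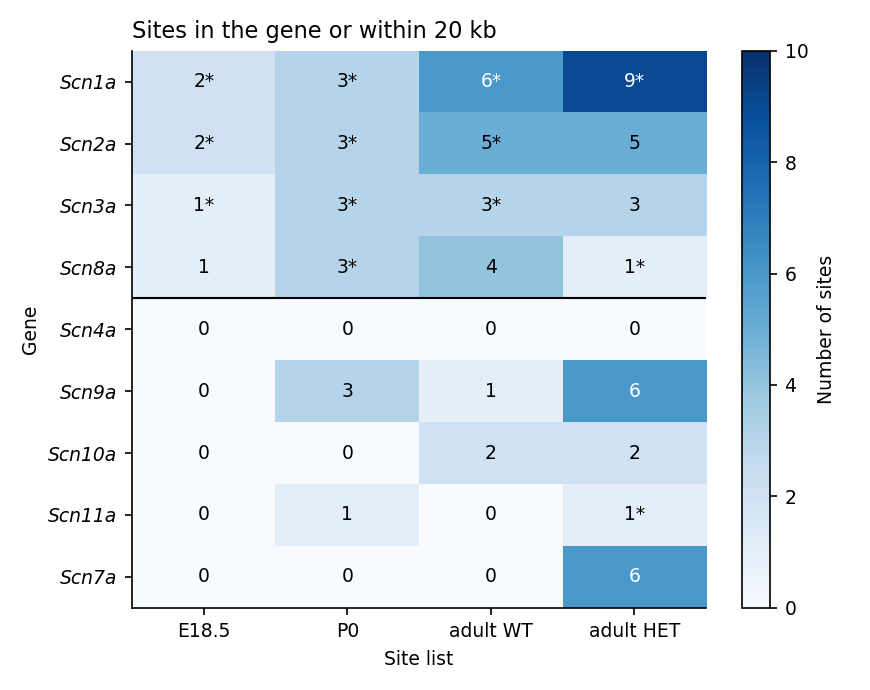
Number of sites in each gene or within 20 kb of it (rows, brain channels above the line) in each list (columns), shaded by number, with an asterisk where a site lay no more than 5 kb from a transcription start. The 4 brain channels have at least 1 site in every list and the other 5 have none at E18.5.

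Counting genes, all 4 brain channels had a site within 20 kb in every list, while the other 5 gave 0 at E18.5, 2 at P0, 2 in WT adults and 4 in HET adults. Among all protein-coding genes 48.8% had such a site at E18.5, 69% at P0, 54% in WT adults and 68.9% in HET adults. The members together gave 4, 6, 6 and 8 of 9. A long gene has a wider window, and of 5672 genes with a length between those of Scn4a and Scn8a the shares were 57.6%, 83.6%, 70% and 85.4%. A share of only 9 genes is coarse and no interval was computed, so the members could not be told apart from genes of like length.

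A stricter rule, which asks for overlap with the 5 kb on either side of a transcription start, called Scn1a, Scn2a and Scn3a at E18.5, against 30% of all genes, and all 4 brain channels at P0, against 45.9%. In adult WT it called Scn1a, Scn2a and Scn3a again, against 20.1%. In adult HET it called Scn1a, Scn8a and Scn11a, against 23.4%. Scn2a and Scn3a were therefore called in the 3 WT lists and not in adult HET, Scn8a was called at P0 and in adult HET, and Scn1a was called in all 4. Over all genes 4.75% were called in 4 lists and 12.1% in 3. The members called were 3 of 9 at E18.5, 4 at P0, 3 in WT adults and 3 in HET adults. Of genes of like length the stricter rule called 35.8%, 57.4%, 23.3% and 26.4%. With 9 members and no interval, the members could not be told apart from genes of like length by this rule either. Whether the change of calls between adult WT and adult HET exceeds the variation between libraries was not tested, since each list is a merge.

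Site density was compared between the brain channels, whose windows cover 763 kb, and the other channels, whose windows cover 676 kb. At E18.5 the brain channels held 0.786 sites per 100 kb (exact Poisson 95% interval 0.289 to 1.71, 6 sites) and the others 0 (0 to 0.546), against 0.547 in the genome outside assembly gaps. With the others set to a floor of 3 sites over the group, the ratio of brain to other density was 1.77. This is not a lower bound, as the exact interval of the ratio began at 1.04, without an upper end. At P0 the values were 1.57 (0.813 to 2.75, 12 sites) and 0.592 (0.161 to 1.51, 4 sites), against 1.54 in the genome. In adult WT they were 2.36 (1.40 to 3.73, 18 sites) and 0.444 (0.0915 to 1.30, 3 sites), against 1.21. In adult HET they were 2.36 (1.40 to 3.73, 18 sites) and 2.22 (1.24 to 3.66, 15 sites), against 2.15. 

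The ratio of brain to other channels was 2.66 at P0 (exact interval 0.806 to 11.3), 5.32 in adult WT (1.55 to 28.2) and 1.06 in adult HET (0.506 to 2.27). In the 3 WT lists the brain channels were the denser group, and in adult WT the interval of the ratio lay above 1. All these intervals take each listed site as a separate event. Some adult WT brain sites lay close together, such as those 0.812 and 1.23 kb downstream of the Scn3a start, so the intervals may be too narrow. Close sites were not merged. The brain channels had 18 sites in both adult lists, while the others had 3 in WT adults and 15 in HET adults. The difference of the ratios between genotypes was not tested. Without the Ttc21b start the ratios were 1.48 at E18.5, against the floor of 3 sites, 2.44 at P0, 5.02 in WT adults and 1.00 in HET adults. The exact interval then began at 0.812 at E18.5, so it included 1, and at 1.45 in WT adults. Without Scn7a, which supplied 6 of the 15 HET sites, the adult HET ratio was 1.38 (0.588 to 3.49). Within gene bodies alone the P0 ratio was 7.21 (9 sites against 1, exact interval 1.00 to 316).

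**Figure D4:**
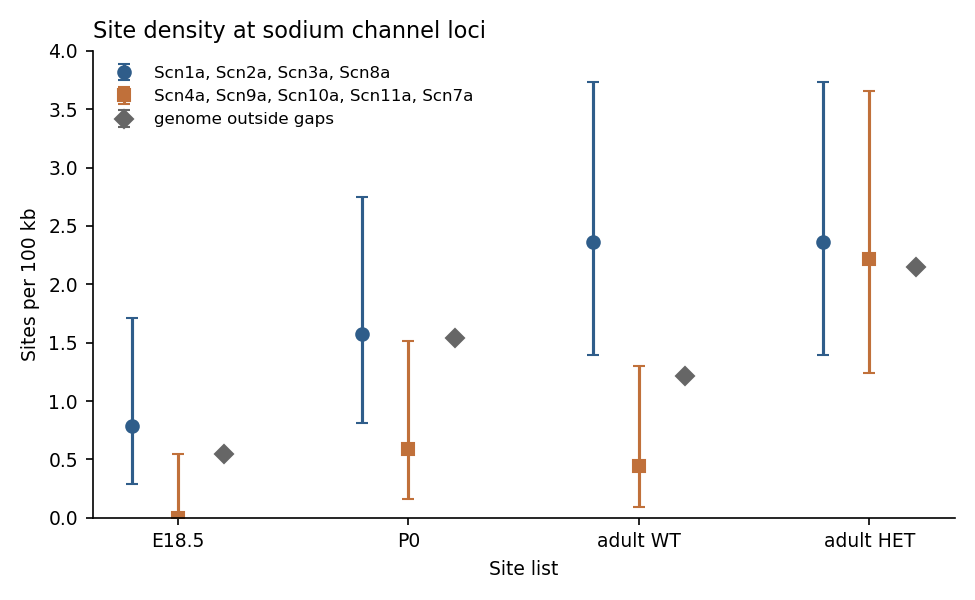
Sites per 100 kb (y axis) in the windows of the 4 brain channels (circles), the 5 other channels (squares) and the genome outside gaps (diamonds) for each list, with exact Poisson 95% intervals as bars. The groups stand apart in adult WT, at 2.36 against 0.444, and lie at 2.36 and 2.22 in adult HET.

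As a whole the 9 loci held 0.762 times the genome density at E18.5, 0.723 times at P0, 1.20 times in WT adults and 1.07 times in HET adults. Each of these intervals included 1, the widest from 0.280 to 1.66 at E18.5. In adult WT the brain channels alone held 1.94 times the genome density (1.15 to 3.07), an interval that also takes close sites as separate events. At P0 the other channels held 0.385 times the genome density (0.105 to 0.985). Their values were 0 at E18.5 (0 to 0.998), 0.365 in adult WT (0.0753 to 1.07) and 1.03 in adult HET (0.577 to 1.70).

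Site width followed the lists. The median width at the channel loci was 527.5 bp at E18.5, 246.5 bp at P0, 180 bp in WT adults and 108 bp in HET adults, beside 593, 276, 167 and 108 bp for all sites of each list. At P0 the sites of the brain channels had a median of 317.5 bp, and those of the others of 145 bp, with none of the latter above 232 bp. Of the 16 P0 sites 7 exceeded the median of the list, and all 7 were at brain channels. In adult WT 11 of 18 brain sites and 1 of 3 others exceeded it, and in adult HET 10 of 18 and 4 of 15. The adult HET list had the most and the narrowest sites of the 4 lists, and the part of this in its count at the other channels was not tested.

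**Figure D5:**
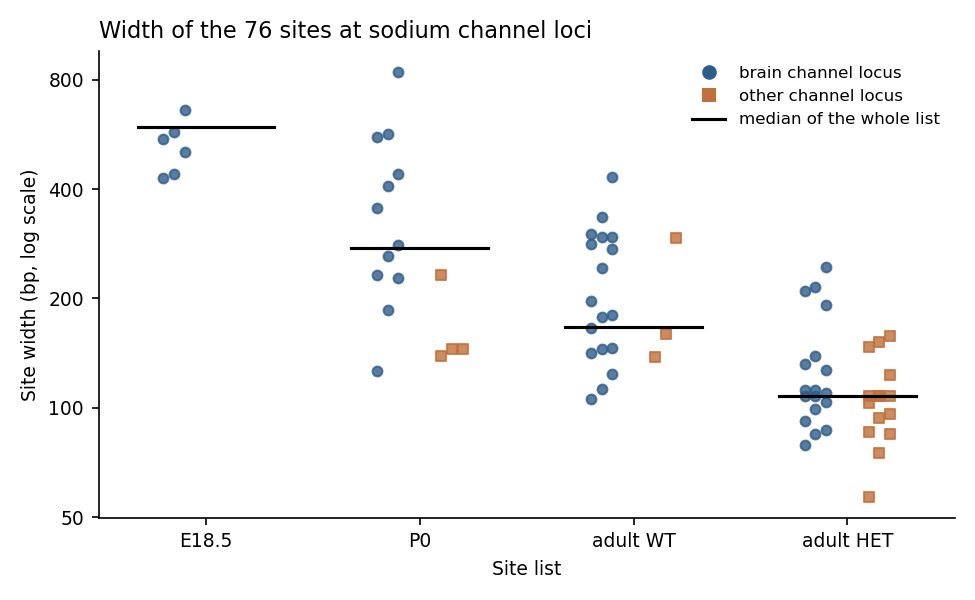
Width in bp (y axis, log scale) of each of the 76 sites by list, with circles for brain channel loci, squares for other channel loci and a black line at the median of the whole list. At P0 the 4 squares lie at 139 to 232 bp, below the line at 276 bp.

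Overlap between lists by at least 1 bp was found at the brain channels alone among these 9 genes. All 6 E18.5 sites overlapped a P0 site (100%, exact Clopper-Pearson interval 54.1 to 100), as did 88.3% of all E18.5 sites. Of the 16 P0 sites 6 overlapped an E18.5 site (37.5%, 15.2 to 64.6), beside 34.8% of all. Of the P0 sites 3 overlapped adult WT (18.8%, 4.05 to 45.6), beside 7.99% of all, and these were the inner Scn2a start, the Scn8a intron at 18.0 kb and the Ttc21b start. In reverse 3 of 21 adult WT sites overlapped P0 (14.3%, 3.05 to 36.3), beside 10.4%. Between the adult genotypes 2 of 21 WT sites were shared (9.52%, 1.17 to 30.4), beside 8.38% of all, and 3 of 33 HET sites (9.09%, 1.92 to 24.3), beside 4.90%. With midpoints within 500 bp counted as shared in place of overlap, 6 of 21 adult WT sites were shared with adult HET (28.6%). They included a site at Scn10a, which is not a brain channel. In all, 22 of the 54 brain sites and 0 of the 22 other sites overlapped a site of another list. Of those brain sites 4 lay at the Ttc21b start. Over all sites the share that overlapped any other list was 91.6% at E18.5, 38.6% at P0, 18.4% in WT adults and 7.59% in HET adults, and 15 of the 22 sites at the other channels came from the adult HET list.

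Position within the genes changed with the list. Within 1 kb of a start of the 9 genes lay 4 of 6 sites at E18.5, 6 of 16 at P0, 3 of 21 in adult WT and 0 of 33 in adult HET. With the Ttc21b start included the counts were 5, 7, 4 and 1, and over all sites the shares near any start of a protein-coding gene were 36.6%, 27.1%, 7.44% and 3.27%. Most adult channel sites were intronic, those near a start included, with 20 of 21 in adult WT and 27 of 33 in adult HET. Neither the intronic share of all sites nor that of the searched windows was computed, so these counts have no background beside them. GC was counted in the 1 kb around the gene start, the outer end of the annotated gene. There it was 44.0% at Scn1a, 34.3% at Scn2a, 38.4% at Scn3a and 44.6% at Scn8a. At the other 5 genes it was 47.9% to 54.8%, beside a median of 54.8% over all genes. These windows held 12 to 22 CpG each at the brain channels and 12 to 33 at the others, below the median of 41 over all genes. The only annotated transcription start of Scn4a lay 3.90 kb inside this end and the first of Scn8a 0.825 kb inside, both outside the window. The inner starts of Scn1a and Scn2a were not measured.

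AAAGTT within 75 bp of the midpoint, on either strand, was found at 0 of 6 sites at E18.5 (exact interval 0 to 45.9%), 1 of 16 at P0, 1 of 21 in adult WT and 3 of 33 in adult HET. Over all sites of the lists the shares were 15.2%, 14.6%, 13.8% and 14.5%, and 11.5% of 9380 windows of 151 bp tiled over the 9 loci outside the sites held the word. All 5 sites with the word in this window were at Scn9a, which had 10 sites. This depended on the window. Searched over the whole site as deposited, the word was found at 0 of 6, 3 of 16, 5 of 21 and 1 of 33 sites, beside 44.3%, 27.4%, 17.5% and 11.3% of all sites, and 6 of these 9 were at brain channels. The windows of 3 of the 5 Scn9a sites are shown, 1 from each list that had any, with AAAGTT in capitals.
Scn9a upstream (P0), chr2:66644475-66644625, minus strand: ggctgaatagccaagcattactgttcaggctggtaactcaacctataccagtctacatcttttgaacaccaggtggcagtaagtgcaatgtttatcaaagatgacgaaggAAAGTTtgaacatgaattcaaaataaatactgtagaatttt
Scn9a intron (adult WT), chr2:66556569-66556719, minus strand: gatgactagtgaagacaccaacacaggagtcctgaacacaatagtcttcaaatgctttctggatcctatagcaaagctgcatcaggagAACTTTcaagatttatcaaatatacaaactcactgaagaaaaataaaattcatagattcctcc
Scn9a intron (adult HET), chr2:66621427-66621577, minus strand: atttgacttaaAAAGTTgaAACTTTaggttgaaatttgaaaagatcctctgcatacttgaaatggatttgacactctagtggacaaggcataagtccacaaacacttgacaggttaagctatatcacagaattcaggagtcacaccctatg
The adult HET window held AAAGTT once on each strand, side by side, neither of them wholly inside the site as listed. Within 250 bp the word was found at 0 of 6, 4 of 16, 9 of 21 and 11 of 33 sites, beside 36.3%, 35.1%, 35.6% and 38.7% of all sites. The shorter AAGTT, which AAAGTT contains, was found within 75 bp at 1 of 6, 8 of 16, 11 of 21 and 12 of 33 sites, beside 36.0%, 36.2%, 35.5% and 36.2%. Of the promoter windows in RefSeq (GRCm38.p6, 300 bases each) 10 belonged to 8 of the 9 genes and none held AAAGTT, beside 14.1% of all 32851. The absence of the letters says nothing about binding by MYT1L.

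Words of other factors were searched in the same windows on both strands. The E-box CAGATG, bound by neuronal bHLH factors, stood at 0 of 6, 4 of 16, 5 of 21 and 3 of 33 channel sites, beside 13.8%, 12.9%, 14.5% and 10.8% of all sites. The AP-1 word TGACTC stood at 0, 0, 1 and 5 sites, beside 6.87%, 6.61%, 9.92% and 7.72%. The nuclear factor I half-site TTGGCA stood at 0, 1, 2 and 2 sites, beside 13.7%, 12.2%, 9.79% and 7.76%. The CRE word TGACGT stood at 0, 0, 0 and 1 sites, beside 3.59%, 3.02%, 1.5% and 1.05%.

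The partners of the channels were counted by the same rules. Of 24 genes listed for the channel complex 23 were matched, and of these 18, 22, 22 and 19 had a site within 20 kb (in the order E18.5, P0, adult WT, adult HET, used from here on), and 10, 17, 7 and 9 had a site within 5 kb of a start. Over all genes the shares were 48.8%, 69%, 54% and 68.9% within 20 kb and 30%, 45.9%, 20.1% and 23.4% within 5 kb, but the partners run from 5.79 kb (Fgf11) to 699 kb (Fgf14), and their counts were not set against genes of like length. None of the 23 lacked a site in all lists. Called in all 4 lists was Ank2, the ankyrin of the axon shaft, with 6, 16, 20 and 18 sites within 20 kb. Also called, in 3 lists, were Ank3, which anchors the channels at the initial segment (7, 18, 9 and 20 sites), Sptbn4, the spectrin beneath it (3, 4, 1 and 3), Scn3b, a beta subunit (2, 4, 1 and 0), Fgf12, an intracellular growth factor that binds the channel tail (2, 12, 15 and 25), and Nedd4l, a ubiquitin ligase that removes channels from the membrane (4, 11, 11 and 9). Ank2, Ank3 and Fgf12 are long genes, of 578, 629 and 593 kb, with wide windows.

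By class the counts were as follows, with too few genes in each to compare classes that also differ in gene length. Of the 4 beta subunits 1, 3, 4 and 1 had a site within 20 kb, and 1, 2, 3 and 0 a site within 5 kb of a start. All 4 intracellular fibroblast growth factor genes had a site within 20 kb in every list, and 2, 4, 1 and 2 within 5 kb of a start. Of the 7 genes of the initial segment and node 7, 7, 7 and 6 had a site within 20 kb, and 4, 6, 2 and 5 within 5 kb of a start. The 3 matched genes of the leak channel all had one within 20 kb in every list, and 1, 2, 0 and 0 within 5 kb of a start. Of the 5 regulators 3, 5, 4 and 5 had one within 20 kb, and 2, 3, 1 and 2 within 5 kb of a start.

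Markers of the cell types that express the channels were counted as well. Of 10 genes of cortical neurons 6, 10, 7 and 8 had a site within 20 kb, beside 48.8%, 69%, 54% and 68.9% of all genes, and 6, 8, 5 and 4 within 5 kb of a start, beside 30%, 45.9%, 20.1% and 23.4%. Of 10 genes of peripheral sensory neurons 3, 5, 2 and 6 had one within 20 kb, and of 10 muscle genes 1, 7, 6 and 6. Of 6 genes each, astrocyte markers gave 2, 4, 3 and 5, oligodendrocyte markers 2, 4, 2 and 4, and microglial markers 2, 2, 3 and 3. Within 5 kb of a start the sensory markers gave 1, 3, 1 and 3 and the muscle markers 0, 0, 2 and 0. By that rule astrocyte markers gave 0, 2, 2 and 3, oligodendrocyte markers 2, 1, 1 and 2, and microglial markers 1, 1, 1 and 0. The lists of sites hold no RNA, so the tissue could not be checked by expression.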

How the data were processed

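The authors ran nf-core/cutandrun on their CUT&RUN reads, with mm10 as the genome build. For the aligner, the peak caller and its threshold, and any use of IgG, details were not given in the sources used here. Per group they deposited 1 MYT1L site list, merged over 3 libraries, with start and end in bp and no score. Of the 12 MYT1L libraries 4 are titled Myt2l or Myt3l, and their descriptions name the same lists. The 12 IgG libraries were not analysed here.

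Genes and starts were those of GENCODE M21 (basic set), and sequence was GRCm38.p6, the same assembly as mm10. A site was given to the examined channel gene that held its midpoint, or to the nearest examined channel gene within 20 kb. Other genes were not considered in this step, even where they lay nearer to the site. Intervals were exact at 95%, namely Poisson for densities, conditional on the total for ratios and Clopper-Pearson for shares. All named sites overlapped another list, lay within 5 kb of a start, or are given to account for a member. Some items that these rules would name are not reported here. The members and gene lists were chosen with earlier results of these data known. Tools were scipy 1.17.1, pandas 2.3.3, numpy 2.4.6 and, for plots, matplotlib 3.10.9, all under Python 3.11.15, and the interval code was tested on simulated sites. Alternatives changed the distance, the sites used, the gene span, the overlap rule and the motif window.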

Additional observations from a re-analysis of the deposited data

How the results depend on the processing

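Of 150 alternative values 140 stayed within the counting interval of the reported value, or within 1.5 times of it for numbers of genes. To stay within the interval was a loose criterion, as that of the adult WT ratio of brain to other channels ran from 1.55 to 28.2. None reversed a density ratio whose interval excluded 1, but at E18.5 a value set against the floor could not fall below 1. The other ratios had intervals that included 1, so a reversal was possible for little beyond that adult WT ratio. The E18.5 interval included 1 within gene bodies (from 0.735), with 5 kb (0.760) or 50 kb (0.957), and without Scn7a or the Ttc21b start (0.812 each). It still began at 1.04 with sites under 50% repeat, the longest transcript or the widest sites up to the smallest list. The ratio of brain to other channels ranged from 1.34 to 7.14 at E18.5, where most values were set against the floor of 3 sites, from 1.48 to 8.29 at P0, from 4.14 to 9.75 in adult WT and from 0.948 to 1.48 in adult HET. With only sites at least as wide as the median of the list, the E18.5 density of the 9 loci over the genome was 0.253, 1 gene had a site at E18.5, and the P0 share with AAAGTT was 0% (0 of 7). With the widest sites of each list, up to the number in the smallest list, 3 genes had a site at P0 and 5 in adult HET. With 250 bp on each side of the midpoint, the share with AAAGTT was 42.9% in adult WT and 33.3% in adult HET, as a longer window holds more words. With the shorter AAGTT, an alternative chosen after seeing the data like the removal of the Ttc21b start, the shares were 50% at P0, 52.4% in adult WT, 36.4% in adult HET. At E18.5 the base pairs covered gave no ratio of brain to other channels, because the other channels had none. Sites at least as wide as the median gave none either, because 1 brain site and 0 other sites remained, under the floor of 3 sites.

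No paired analysis was possible because each list is a merge of its libraries and carries no replicate, and leaving out replicates was not possible either. Depth, peak height and support per library were unknown, so a missing site is not evidence of missing binding, and counts of 0 to 9 sites per gene allow wide ranges of density.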
